A study of Homo sapiens with 2 samples.

Results

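The genes SOX9, KCNJ2 and KCNJ16 lie together on the long arm of chromosome 17, and their contacts with an integrated reporter, whose strongest signal lies on chromosome 12, were examined at 50 kb resolution. The members are the probes (windows of 50 kb, hg18 coordinates) that the deposited table assigns to these genes: 4 of 61607 probes, 1 each for SOX9 and KCNJ2 and 2 for KCNJ16. The 42 probes from 65600001 to 67700000, which run from the second KCNJ16 probe past SOX9, served as context, and 35 of them carry no gene name. The locus was chosen by its RPM values in both libraries, which had been seen to be high, so its levels and shares are descriptions without a test.

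Both libraries are 4C-seq of U2OS, a human osteosarcoma cell line, carrying the transgenes DRGFP (a reporter for repair of a double-strand break at an I-SceI site), TRE-I-SceI (an I-SceI gene under a tetracycline-responsive element) and Tet-On. The 4C method joins pieces of DNA that lie close together in fixed nuclei, and PCR outward from 1 fragment, here beside the I-SceI site of DRGFP, then shows which pieces were joined to it. The 2 independent experiments form 1 group with no control, and no treatment is recorded, so values are compared between the experiments and between regions. Whether the line is a single clone is not given in the sources used here. Values are given in reads per 1000000 of each total (RPM). The worth of 1 read was recovered from the steps between values, at 1.06 RPM in replicate 1 and 2.20 in replicate 2. Totals of 944456 and 454091 reads were inferred from it. The probes together held 947121 and 454478 reads, 0.282% and 0.0852% above these totals, so the totals are approximate. A count of 0 allows up to 3 reads as a one-sided limit, 3.18 and 6.61 RPM. Intervals on reads are two-sided 95% exact Poisson intervals, whose upper end for 0 reads is 3.91 and 8.12 RPM. They cover counting error alone, because 30 cycles of PCR copy single ligation products and no molecular identifiers were used.

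SOX9 encodes a transcription factor with an HMG box that drives the formation of cartilage and of the testis. It is regulated by enhancers spread through the long, gene-poor stretch on its KCNJ2 side. KCNJ2 encodes Kir2.1, an inward-rectifier potassium channel that holds the resting potential of heart and skeletal muscle, and KCNJ16 encodes Kir5.1, a subunit that joins other Kir channels, for example in the kidney. In mouse and human the stretch between KCNJ2 and SOX9 is known for a boundary between chromatin domains, and rearrangements that cross it cause limb and skeletal malformations.

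Promoter sequences from RefSeq (GRCh38.p14, 250 bases before to 50 after a start) matched 2 of the 3 genes, with 4 starts, of which 3 are shown; the window of the third KCNJ16 start overlaps that of the second, holds 1 Csp6I site and is left out. They are shown because a 4C product needs a HindIII end, and then a Csp6I cut, to be amplified, so the capitals mark the sites AAGCTT (HindIII) and GTAC (Csp6I), which read alike on both strands and do not overlap each other. Their coordinates are of another build than the probes and cannot be set beside them.
KCNJ16, first start, chr17:70074975-70075274, plus strand: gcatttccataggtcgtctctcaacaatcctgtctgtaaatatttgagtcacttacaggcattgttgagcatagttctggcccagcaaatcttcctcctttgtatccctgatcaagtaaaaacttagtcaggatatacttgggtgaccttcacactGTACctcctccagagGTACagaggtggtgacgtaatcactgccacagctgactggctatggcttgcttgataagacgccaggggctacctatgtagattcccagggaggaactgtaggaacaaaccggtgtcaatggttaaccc
KCNJ16, second start, chr17:70104595-70104894, plus strand: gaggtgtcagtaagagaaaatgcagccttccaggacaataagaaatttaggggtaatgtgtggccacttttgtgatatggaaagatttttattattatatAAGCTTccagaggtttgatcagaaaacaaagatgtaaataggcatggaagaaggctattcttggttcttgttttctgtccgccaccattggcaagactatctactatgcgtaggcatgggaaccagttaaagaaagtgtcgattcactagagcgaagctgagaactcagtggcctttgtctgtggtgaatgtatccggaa
KCNJ2, chr17:70169282-70169581, plus strand: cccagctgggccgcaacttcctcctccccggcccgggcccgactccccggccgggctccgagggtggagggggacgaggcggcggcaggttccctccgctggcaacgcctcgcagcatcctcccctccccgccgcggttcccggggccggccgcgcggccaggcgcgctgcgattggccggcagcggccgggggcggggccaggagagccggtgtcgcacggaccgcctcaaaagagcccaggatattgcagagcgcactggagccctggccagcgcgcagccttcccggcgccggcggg
The first KCNJ16 window holds 2 Csp6I sites and no HindIII site, and the second holds 1 HindIII site. The KCNJ2 window holds neither, and has 39 CG pairs and a GC content of 78% against 4 and 47% at the first KCNJ16 start. Of all 35116 promoters of this length, 5.84% hold AAGCTT and 29.8% hold GTAC. A match is a description of these letters and says nothing of whether the site was cut.

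At SOX9 the single probe (67600001 to 67650000, overlapping the gene) had 197 reads in replicate 1 and 37 in replicate 2. These are 209 RPM (interval 180.5 to 239.8) and 81.5 RPM (57.4 to 112), a mean of 145 ± 89.9 (SD, n = 2). Both libraries thus had reads, with the level 2.56 times higher in replicate 1 and intervals that do not overlap. The probe ranked 40 in replicate 1 and 69 in replicate 2 among the 1574 probes of chromosome 17. The adjoining probes without a gene name stood higher in replicate 2, at 410 RPM on the KCNJ2 side and 722 on the far side, while each had 3.18 RPM (3 reads) in replicate 1.

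KCNJ2 was read at its single probe (65650001 to 65700000) by 69 and 140 reads, or 73.1 RPM (56.8 to 92.5) and 308 RPM (259 to 364), with a mean of 191 ± 166 (n = 2). Here replicate 2 was higher, by 4.22 times. The order of SOX9 and KCNJ2 was therefore opposite in the libraries, and the difference of their means, 145 against 191, was smaller than either SD.

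KCNJ16 spans both remaining probes. The first (65550001 to 65600000) had 6 and 57 reads, or 6.35 RPM (2.33 to 13.8) and 126 RPM (95.1 to 163), with a mean of 65.9 ± 84.3 (n = 2). The second (65600001 to 65650000) had 1 read in replicate 1, 1.06 RPM, and none in replicate 2. By its first and higher probe, KCNJ16 was the lowest of the 3 genes in replicate 1 and stood between SOX9 and KCNJ2 in replicate 2. The mean of that probe differed from the means of SOX9 and KCNJ2 by less than the larger SD of each pair. By this measure no pair of neighbours in the order KCNJ2, SOX9, KCNJ16 is separated by the replicates. Averaged over its 2 probes, KCNJ16 was the lowest in both libraries, at 33.2 ± 41.8 RPM (n = 2). Its difference from SOX9 was then larger than either SD, while that from KCNJ2 was still smaller than the SD of KCNJ2. The place of KCNJ16 thus depends on how its probes are summarised.

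**Figure D1:**
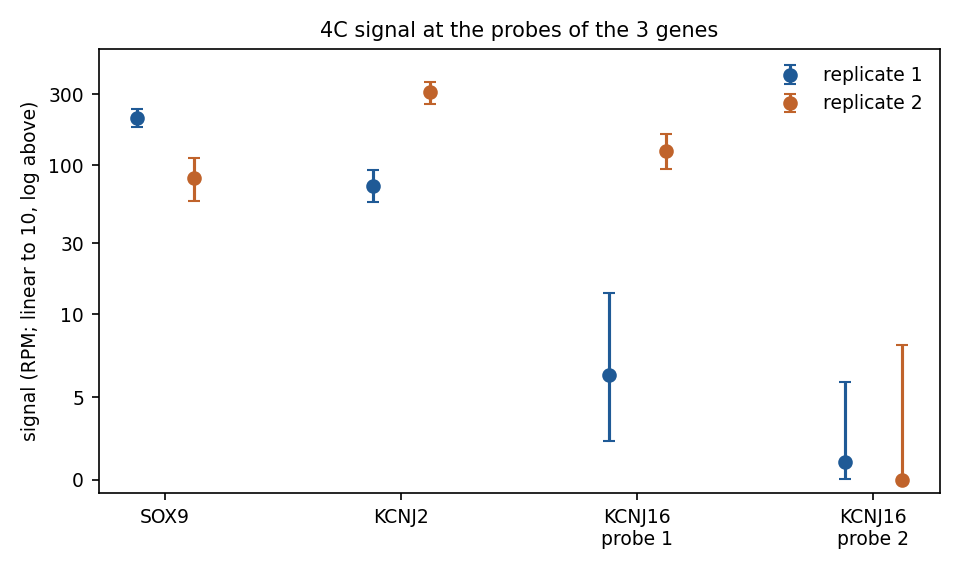
Signal (RPM, linear to 10 and logarithmic above) at the probes of SOX9, KCNJ2 and KCNJ16 in each library, with 95% exact Poisson intervals as bars. SOX9 is higher in replicate 1 (209 against 81.5 RPM), KCNJ2 (308 against 73.1) and the first KCNJ16 probe (126 against 6.35) in replicate 2, and the second KCNJ16 probe is at or near 0 in both.

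Of the 4 member probes, 4 had reads in replicate 1 and 3 in replicate 2. Over all probes of the table the shares with reads were 8.06% and 8.63%. The same 3 had reads in both, against 2.48% of all probes, and nothing is read from these counts because the genes were picked for them. By the mean of their highest probe, KCNJ2 ranked 289, SOX9 389 and KCNJ16 691 among 17797 gene names off chromosome 12. On chromosome 17 alone they ranked 25, 34 and 52 among 769 names. On that chromosome 24 gene names thus had a higher probe than KCNJ2.

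The 4 member probes averaged 72.3 RPM per probe in replicate 1 and 129 in replicate 2, against 122 and 115 over the 42 probes of the interval, so the genes were below it in 1 library and above it in the other. Reads were found at 31 of the 42 probes in each library, or 73.8% ± 0 (SD, n = 2; 95% Clopper-Pearson interval 58.0% to 86.1% in each). Clopper-Pearson intervals, here and below, treat probes as independent draws, which adjoining probes of 1 library are not. They do not cover the spread between experiments. Both libraries had reads at 24 probes (57.1%), each had 7 that the other lacked, and 4 had no reads in either. In the rest of the raised segment around the interval 23.8% of probes had reads in both, and 2.48% of all probes did. Where each library has reads at most probes, many are shared even if the libraries are unrelated, so the 24 are not read as agreement. The interval held 4831 reads in replicate 1 and 2202 in replicate 2, which is 0.512% and 0.485% of the libraries and 18.3% and 18.9% of the reads on chromosome 17. Its mean per probe was 119 ± 4.48 RPM (n = 2), while the medians were 20.6 and 37.4. The 5 highest probes held 61.1% of the interval's signal in replicate 1 and 53.0% in replicate 2, and only 1 probe was among the top 5 of both.

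**Figure D2:**
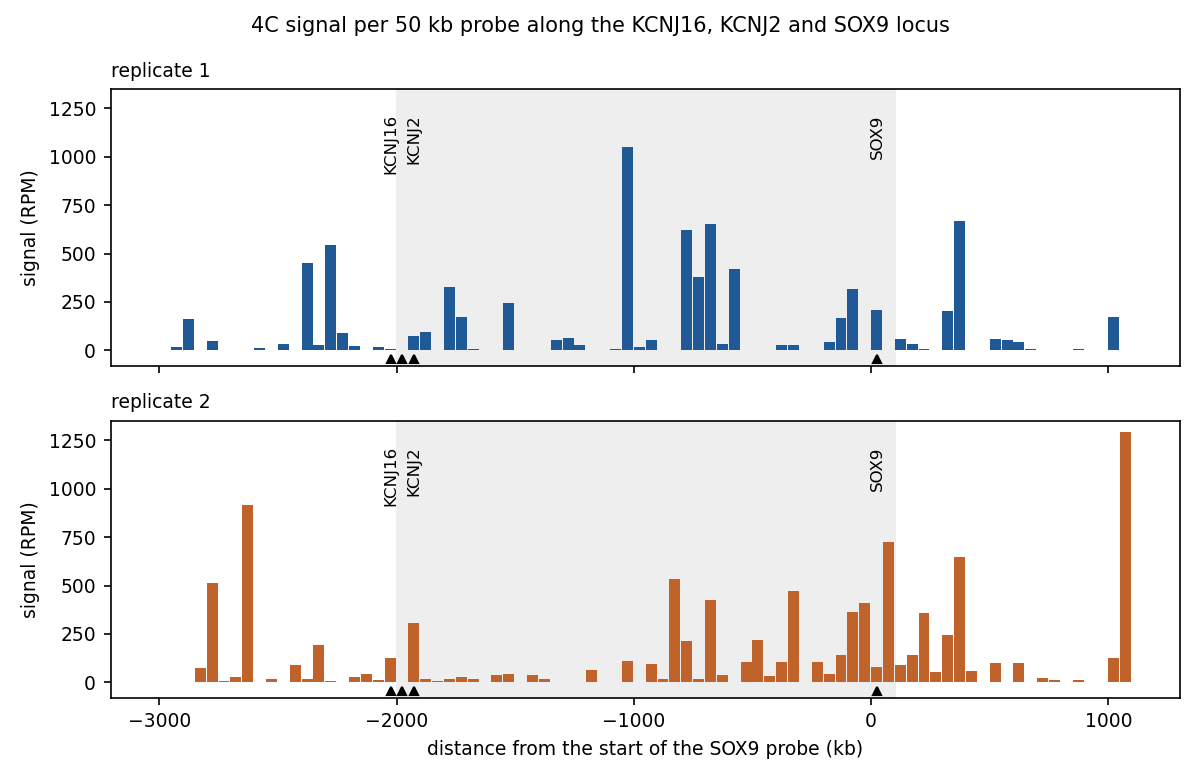
Signal (RPM) of each 50 kb probe, as bars, against its distance in kb from the start of the SOX9 probe, in replicate 1 (top) and replicate 2 (bottom), with the 42-probe interval shaded and the probes of the 3 genes marked by triangles. Reads occur at 31 of the 42 shaded probes in each library, and the tallest bars stand at other probes than the triangles.

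Next to KCNJ2, the 10 probes from 65600001 to 66100000 had reads at 8 probes in each library, at 7 of them in both. The mean was 92.8 RPM per probe in replicate 1 and 47.8 in replicate 2. Beyond the KCNJ2 probe, replicate 1 was the higher at the strongest positions, with 327 against 17.6 RPM at 65800001 to 65850000 and 246 against 41.8 at 66050001 to 66100000. At 65850001 to 65900000 it had 175 and replicate 2 had 28.6. KCNJ2 itself held 64.5% of the signal of these 10 probes in replicate 2.

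The sparsest part followed, from 66100001 to 66600000. Reads were found there at 5 of 10 probes in replicate 1 and at 4 in replicate 2, and at 1 in both. That 1 probe (66550001 to 66600000), without a gene name, had 993 and 50 reads, or 1051 RPM (987 to 1119) and 110.1 RPM (81.7 to 145.2). It is the highest of the interval in replicate 1, holds 20.6% of the interval's signal there, and ranked 6 on chromosome 17 in that library and 53 in replicate 2.

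From 66600001 to 67100000 the mean was 218 RPM per probe in replicate 1, the highest of the 500 kb blocks in that library, and 145 in replicate 2, with reads at 8 of 10 probes in each library. The probe from 66900001 to 66950000 was high in both, at 652 RPM (602 to 706) in replicate 1 and 427 (369 to 492) in replicate 2, or 540 ± 159. The probe from 66800001 to 66850000, which overlaps a gene with a clone-based name, had 623 and 214 RPM. Neighbours of these differed sharply: the probe from 66750001 to 66800000 had 3.18 and 535 RPM, and that from 66850001 to 66900000 had 381 and 17.6. At 67000001 to 67050000 replicate 1 had 419 RPM and replicate 2 had no reads. Lower values stood at 66950001 to 67000000, with 31.8 and 37.4 RPM, and at 66650001 to 66700000, with 56.1 and 96.9, a ratio of 1.73.

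In the last 500 kb before SOX9, from 67100001 to 67600000, replicate 2 was the higher, with a mean of 189 RPM per probe against 58.8. Reads were found at 8 and 9 of 10 probes, at 8 in both. Libraries were close in level at 3 probes here: 43.4 and 41.8 RPM at 67400001 to 67450000, 318 and 361 at 67500001 to 67550000 (a clone-based name), and 168 and 139 at 67450001 to 67500000. The probe from 67250001 to 67300000 differed, with 26.5 and 473 RPM, as did that from 67200001 to 67250000 with 25.4 and 106. At 67100001 to 67150000 replicate 1 had 1 read, 1.06 RPM, and replicate 2 had 218 RPM. Replicate 1 was thus the higher library in the 3 blocks nearer KCNJ2 and replicate 2 in the block next to SOX9, with no test of this pattern.

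Across the 24 probes read in both libraries, replicate 1 was higher at 11 and replicate 2 at 13. The ratio of the higher to the lower value ran from 1.04 to 227 with a median of 4.81, was below 2 at 6 probes and above 10 at 8. At 10 of the 24 the lower library had fewer than 10 reads, and at 6 it had 3 or fewer. The 5 probes with 1 to 3 reads in replicate 1 and 40 or more in replicate 2 were among these, and the part of reads carried over between libraries was not tested. With at least 10 reads asked of both libraries, 14 of the 42 probes remained. Over the 42 probes, which share the libraries and their depth, Pearson's r of log2(RPM + 1) was 0.214 and Spearman's rho 0.223. Over the 24 probes read in both, they were -0.143 and -0.144. On the 395 other probes of the surrounding raised segment, Pearson's r was 0.291, and on chromosome 12, which carries the strongest signal, it was 0.774.

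A two-sided exact binomial test of the reads of replicate 1 against those of replicate 2, with Benjamini-Hochberg adjustment over the 8750 probes with a read in either library, compared these libraries and not conditions. It called 4305 probes, 49.2% of those tested. In the interval it called 30 of the 38 tested (78.9%), 14 higher in replicate 1 and 16 higher in replicate 2. Among probes read in both libraries it called 75.0% of 24 in the interval and 69.1% of 1529 in the table. The locus was chosen on values of these libraries, so its counts are descriptive and no p is given for its probes. The test counts PCR copies as if they were separate ligation events.

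**Figure D3:**
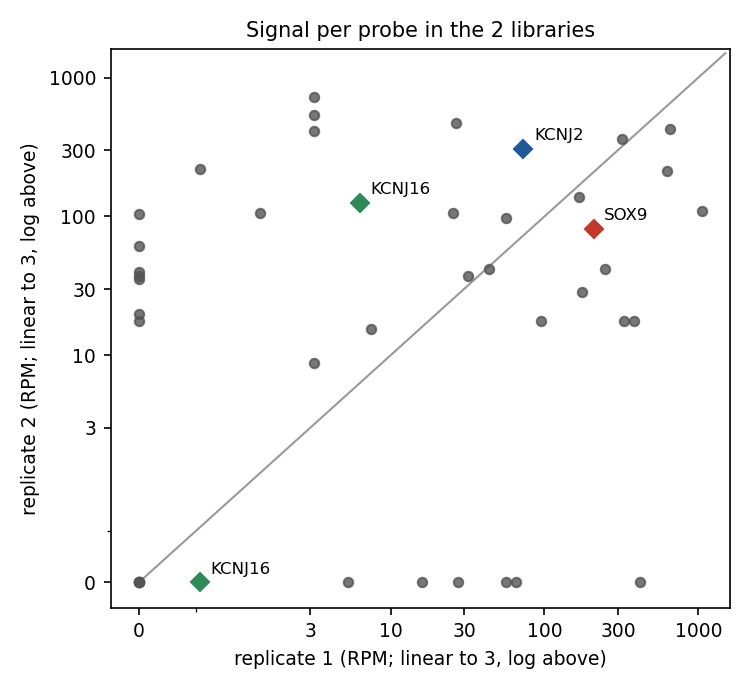
Signal (RPM, linear to 3 and logarithmic above) of each probe in replicate 1 (horizontal) and replicate 2 (vertical), for the 42 probes of the interval and the first KCNJ16 probe, with equal values on the line. The points lie widely off the line, SOX9 below it and KCNJ2 above it, and 7 probes lie on each axis with reads in 1 library alone, among them the second KCNJ16 probe.

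The interval was compared with its surroundings, again as a description. Raised detection on chromosome 17 spanned 54.1 to 75.95 Mb (the single stretch of highest binomial likelihood, placed from these data). The other 395 probes of that stretch had reads in 38.2% (33.4% to 43.2%) of cases in replicate 1 and in 46.1% (41.1% to 51.1%) in replicate 2 (95% Clopper-Pearson intervals), where the interval had 73.8%. Their means were 51.6 and 43.8 RPM, so the interval stood 2.50 ± 0.193 times higher (n = 2). Among probes without a gene name, 68.6% and 74.3% had reads in the interval, against 43.7% and 47.9% of the other 71 such probes in the stretch. On autosomes other than 6, 12 and 17, 5.79% and 6.44% of 20590 probes without a gene name had reads.

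The raised detection did not end at the genes. In the 20 probes (1 Mb) on the KCNJ16 side of the interval, 65% and 75% had reads, with means of 71.8 and 103.5 RPM. In the 1 Mb beyond SOX9, 60% and 70% had reads, with means of 65.8 and 163 RPM, and replicate 2 was the higher on both sides. On the KCNJ16 side 1 MAP2K6 probe (0 and 918 RPM) held 44.4% of the replicate 2 signal, and without it replicate 1 was the higher there. Beyond SOX9 the SSTR2 probe (2.12 and 1293 RPM) held 39.6%, and replicate 2 stayed the higher without it. At the edges, the last probe inside (67650001 to 67700000) had 3.18 and 722 RPM and the first outside (67700001 to 67750000) 60.4 and 88.1, while at the other end the probes inside and outside were those of KCNJ16. The probe from 67950001 to 68000000, 350 kb past the start of the SOX9 probe and without a gene name, had 667 and 649.6 RPM (658 ± 12.3), a ratio of 1.03. This probe was singled out after its values were seen. Among the 1533 overlapping windows of 42 probes along chromosome 17, the interval ranked 3 by probes with reads in replicate 1 and 27 in replicate 2, and 24 and 39 by mean signal. The first window of highest count began at 66200001 in replicate 1 and at 66650001 in replicate 2, and both cover SOX9. In replicate 1 the window starting 1 probe further on had the same count. The window of highest mean ran from 65200001 to 67300000 in replicate 1, which ends before the SOX9 probe, and from 66650001 to 68750000 in replicate 2, which covers it.

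**Figure D4:**
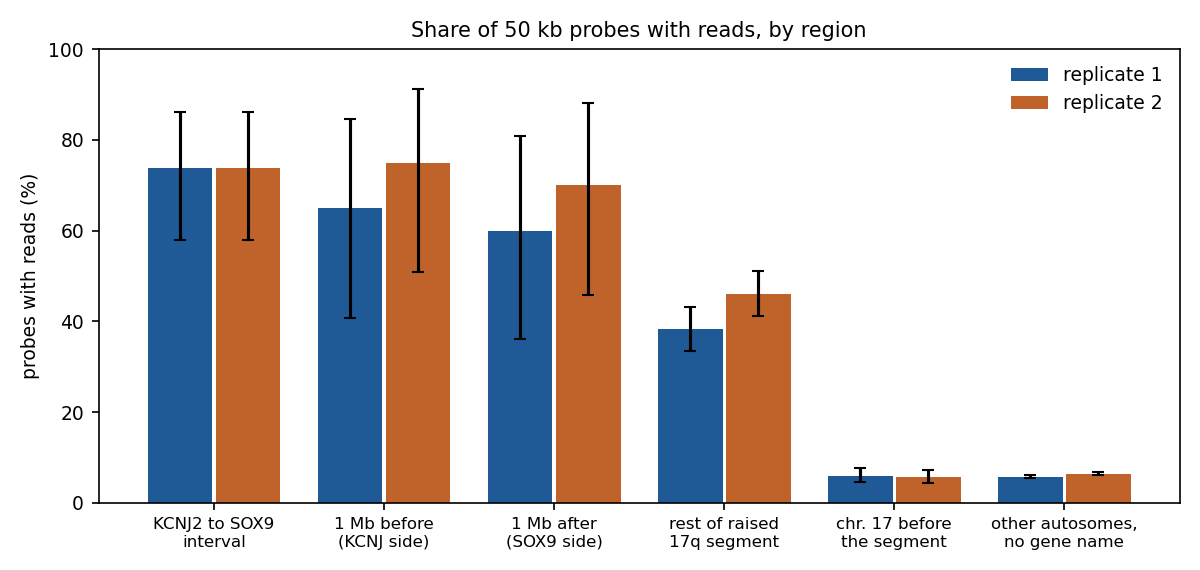
Share of 50 kb probes with reads (%) in each library, with 95% Clopper-Pearson intervals as error bars, for the interval, the 1 Mb on each side, the rest of the raised segment of chromosome 17, the part of that chromosome before it, and probes without a gene name on autosomes other than 6, 12 and 17. The interval is at 73.8% in both libraries, its flanks between 60% and 75%, the rest of the segment at 38.2% and 46.1%, and the last 2 regions near 6%. The error bars treat probes as independent and do not cover the spread between experiments.

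Before that segment, chromosome 17 had reads at 6.01% and 5.64% of 1082 probes. Against all 1532 probes of chromosome 17 outside the interval, the rest of the segment included, the interval's mean was 8.36 ± 0.235 times higher (8.20 and 8.53 in the 2 libraries). Where only probes with reads were averaged the ratio was 1.75, and the share of probes with reads was 4.82 ± 0.491 times higher. Against that background the interval thus differed more in how many probes had reads than in the level of those that did. Against the rest of the raised segment the share was 1.93 and 1.60 times higher in replicates 1 and 2. The level at probes with reads was 1.22 and 1.64 times higher, so there this order held in replicate 1 only. No stretch longer than 1 probe in the interval lacked reads in both libraries. The longest such run was 7 probes (350 kb) in the whole segment and 43 probes (2150 kb) on the chromosome. These regions hold 42, 437 and 1574 probes, and a longest run tends to grow with the number searched, so the runs are not compared.

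Genes on either side had reads too. MAP2K6, a kinase that activates p38, had reads at 2 of 4 probes in replicate 1 and 4 in replicate 2, with 0 and 918 RPM at its highest. ABCA5, a lipid transporter of the ABCA cluster, had 46.6 and 515 RPM, and ABCA6 had none. ABCA10 had 163 and 0 RPM at its highest probe, and 0 and 72.7 RPM at another (64750001 to 64800000). On the far side SLC39A11, a zinc transporter, had reads at 5 of its 10 probes within 1 Mb in each library and 172 and 128 RPM at the highest, and SSTR2, a somatostatin receptor, had 2.12 and 1293 RPM. Of 20 genes listed along this part of 17q24, 18 are named in the table. Counting reads at any probe of a gene, 14 had reads in replicate 1, 15 in replicate 2 and 13 in both. Over all 18664 gene names the shares were 14.4%, 14.7% and 5.91%. COG1, a Golgi trafficking subunit past SSTR2, had 556 and 377 RPM, a mean of 466 ± 127.

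Of all 18664 gene names, 76.8% had no reads in either library, and relatives of the 3 genes are set beside that share. Of 15 KCNJ genes listed, 12 are named in the table and 7 had none (58.3%). KCNJ2 and KCNJ16 are counted in this list and were picked for their reads, which lowers this share, so nothing is read from it. Besides KCNJ2 and KCNJ16, KCNJ8 had reads in both, with 94.2 and 59.5 RPM, and it lies on chromosome 12, which carries the reporter's strongest signal. KCNJ1 had 9.53 and 0 RPM and KCNJ15 had 0 and 110.1. Of 19 SOX genes, with the chosen SOX9 counted among them, 14 are named and 11 had no reads (78.6%). SOX5 and SOX6, which act with SOX9 in cartilage, had 0 and 192 RPM (SOX5, on chromosome 12) and 0 and 200.4 RPM (SOX6) at their highest probe, and SOX6 had 1 read in replicate 1 at another of its 12 probes. Of 17 genes under or beside SOX9 in cartilage, 11 are named and 9 had no reads (81.8%), among them COL2A1 and ACAN, the genes of type II collagen and aggrecan. The median over the genes was 0 RPM in all 3 of these lists, as it was over all gene names. No test was made on these lists.

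The gene names whose highest probes had values closest to the members, by Euclidean distance over log2(RPM + 1) of the 2 libraries among the 10130 other names off chromosome 12 that match a current gene symbol, lay largely on chromosomes 6 and 17. For SOX9 they were GPRC5C on chromosome 17 (284 and 70.5 RPM), and ASCC3 (290.1 and 72.7) and TREML2 (188 and 52.9) on chromosome 6. For KCNJ2 they were TREM1 on chromosome 6 (62.5 and 313), WIPI1 on chromosome 17 (93.2 and 253) and DAAM2 on chromosome 6 (49.8 and 394). For KCNJ16 they were IL21 on chromosome 4 (5.29 and 130), NT5E on chromosome 6 (8.47 and 152) and UMODL1 on chromosome 21 (4.24 and 117). With 2 libraries, likeness here means a similar pair of values.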

How the data were processed

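4C-seq libraries of 2 experiments on DRGFP-carrying U2OS cells were used. Per the labels' protocols, chromatin was fixed, cut with HindIII, ligated, cut with Csp6I, circularised and amplified by inverse PCR. The signal values that the authors deposited are, per the file headers, 1 column per library over 50 kb probes. They are whole multiples of a step, and 100% gave whole reads within 0.1 read, so the signal was read as RPM. Coordinates are hg18 (per the submitters' processing notes). Which aligner, filters and gene annotation were used is not given in the sources used here. A column total and a mean (2 rows) and 1 mitochondrial probe were left out.

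Means, SDs and Clopper-Pearson and Poisson intervals (95%) were computed with Python 3.11.15 and scipy 1.17.1. So was the exact binomial test, a count test of the recovered reads with Benjamini-Hochberg adjustment at 0.05. This test and the search for the raised stretch were tried on simulated data. The simulated counts were Poisson draws without PCR copies, so they do not show how the test behaves on these reads. The pseudocount was 1. Gene names were matched to RefSeq symbols of GRCh38.p14. Members and gene lists were chosen with earlier results of these data known. Named were the 3 genes, most but not all probes of the interval read in both libraries, and neighbours within 1 Mb. Members of the KCNJ, SOX and cartilage lists read in both libraries and the 3 nearest gene names to each member were also named. Single-library genes and COG1 were added after their values were seen. Alternatives covered the read minimum, scale, interval, background and each replicate. Replicates are independent experiments per the labels. No HindIII map of hg18 was used, so fragments per probe were not corrected for.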

Additional observations from a re-analysis of the deposited data

How the results depend on the processing

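The share of probes with reads in the interval, 73.8% with an SD of 0 between the libraries, was 71.4% with at least 2 reads, 54.8% with at least 10, 71.4% over probes without a gene name and 70.7% with 1 Mb more on each side. The mean signal, 119 RPM, was 19.9 RPM when averaged as log2(RPM + 1) and turned back to RPM, and 30.7 with log2(RPM + 5). It was 161 over probes with reads, 99.9 without the highest probe of each library and 110.0 in the widened interval. Its ratio to the rest of chromosome 17, 8.36, was 34.5 and 20.3 between means averaged and turned back in these ways. It was 1.75 over probes with reads, 7.05 without the highest probe and 9.59 when widened. Against the rest of the segment it was 2.50, and 30.3 against autosomes other than 6, 12 and 17. It stayed above 1 in all of these, but the locus was chosen for its high values, so this is a description and no support. By construction the log scales lower the weight of high probes and, where most probes have no reads, pull the mean towards 0. Outside the interval the median on chromosome 17 was 0 RPM in both libraries, so a small divisor enters these ratios. The other settings change which probes are averaged. Leaving out a replicate gave 115 to 122 RPM, ratios of 8.20 to 8.53 and 73.8% to 73.8%. The 30 probes that differed between libraries became 31 with the expectation from reads off chromosome 12 and 28 with a minimum of 10 reads. No paired analysis was possible because there is 1 group. With 2 libraries the SDs are imprecise, and the 454091 reads of replicate 2 make 1 read worth 2.20 RPM, which limits what can be told of its low probes.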
